A study of Mus musculus with 12 samples.

Results

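YY1 is a zinc finger DNA-binding protein that sits at the starts of many housekeeping genes. There it can help to bring in the transcription machinery, and at distal sites it helps to bridge enhancers and promoters. A well-known form of its motif carries the letters AAGATGGCG, often lies just downstream of the start of transcription, and is common in genes of the translation and respiratory machinery. YY1 has also been described as a protein that ties Xist RNA to the inactive X chromosome, which is the setting in which it was profiled here.

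The regions described here were YY1 peaks close to protein-coding genes that appeared in both replicate 2 ChIP-seq libraries and in neither replicate 1 library. The peaks of the 4 YY1 libraries were merged wherever they shared at least 1 bp. Merged regions on chromosomes 1 to 19 were kept when a protein-coding gene of GENCODE M21 had a transcript start within 3 kb. This gave 1451 regions of 19768 merged regions in all, or 7.53% of the 19268 autosomal ones, called replicate 2-only promoter regions here. The choice rests on the measured peaks themselves, so their presence in one replicate number and their absence from the other is a description and not a finding.

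The series profiled lineage-depleted (Lin-) bone marrow cells, the fraction left after cells with surface proteins of mature blood lineages have been removed. All mice were 3-month-old females of the strain 129Sv4/Jae x B6. WT mice, described as littermates by the study, were set against XistΔ/Δ mice, in which Vav-iCre, active in blood cells, had deleted Xist. Whether WT mice had Cre as well, how many mice were pooled for a library and whether the 2 replicates of a genotype came from separate mice are not stated in the labels. Xist is the noncoding RNA that starts silencing of 1 X chromosome in female cells. Of 12 samples in the series, the 4 YY1 libraries (2 WT, 2 XistΔ/Δ) are used, and 8 histone mark samples were not analysed here.

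Replicate number went together with depth. In units of 1000000 tags (M), the replicate 1 libraries held 24.9 M (WT) and 23.1 M (XistΔ/Δ) tags, and the replicate 2 libraries held 50.0 and 59.5 M. They gave 9553 and 10075 peaks in replicate 1, against 15933 and 18113 in replicate 2. The smallest tag count that made a peak was 0.884 and 0.951 per M tags in replicate 1, and 0.660 and 0.621 per M in replicate 2, so a site had to gather a larger share of the tags to be listed in the shallower libraries. The share of tags in peaks also moved with the replicate number, at 3.58% and 3.59% in replicate 1 and 4.87% and 4.88% in replicate 2. Depth, enrichment and anything else that differed between the replicate numbers cannot be told apart. Cell type could not be checked from peaks: of 18 surface marker genes of mature lineages, 12 had no YY1 region within 3 kb and 1 had a region in all 4 libraries, against 6 and 1 of 12 progenitor surface markers.

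The long YY1 motif was rare in the replicate 2-only promoter regions. It was searched on both strands in the 500 bp around the middle of each region, and 7 of 1451 regions held it. All 7 are given with 30 bases around the motif, read 5′ to 3′ on the strand that carries it, so that they can be compared with 4 regions that had peaks in all 4 libraries. The capitals mark AAGATGGCG. The sequences are from the RefSeq copy of GRCm38 (mm10).
Apbb1: cgccccggccAAGATGGCGcccctccccct
Parp11: tttccaacacAAGATGGCGctagcacacag
Celsr3: gttctcaataAAGATGGCGgtaacggcttc
Fbf1: gcttctgggtAAGATGGCGgcagggaagga
App: taagacggagAAGATGGCGcctctgcagtg
Fzd5: tcgcccccggAAGATGGCGcccctggtggt
Ddc: ggaatggtcaAAGATGGCGttcctaggctt

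Only 1 of these 7 motifs lay within 100 bp of a transcript start. It was at Apbb1, which encodes an adaptor that binds the amyloid precursor protein, in chr7:105581282-105581311 on the minus strand, with its centre 19 bp upstream of the start and on an annotated UTR of another transcript. The motif at Parp11, an ADP-ribosyltransferase gene, was in chr6:127446500-127446529 (minus strand), 325 bp upstream. That at Celsr3, a cadherin gene of planar cell polarity, was in chr9:108825942-108825971 (plus strand), 364 bp upstream. The remaining ones were 367 bp upstream of Fbf1 (chr11:116151148-116151177, plus strand) and 1490 bp downstream of a start of App, the amyloid precursor gene itself (chr16:85172199-85172228, minus strand). In Fzd5, a Wnt receptor gene, the motif was in coding sequence 1676 bp downstream (chr1:64736059-64736088, plus strand). In Ddc, the gene of the decarboxylase that makes dopamine and serotonin, it was 2451 bp downstream (chr11:11820455-11820484, minus strand). Apart from those at Apbb1 and Fzd5, the motifs fell in no annotated exon. Peaks at these sites were narrow to moderate: in WT replicate 2 they spanned 767 bp at Apbb1, 501 bp at Parp11, 673 bp at Celsr3, 762 bp at Fbf1, 644 bp at App, 819 bp at Fzd5 and 633 bp at Ddc. In XistΔ/Δ replicate 2 the same regions spanned 786, 501, 501, 628, 1036, 641 and 784 bp, in that order.

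The 4 regions with peaks in all libraries, chosen because the motif centre fell on a transcript start, read as follows with the same capitals.
Arnt: cgcggaatccAAGATGGCGgacgcccaccc
Pnisr: tgaacaagacAAGATGGCGcccggtggttc
9930104L06Rik: gagtcgcgaaAAGATGGCGtgtgccgcaat
2810021J22Rik: aaccggaagcAAGATGGCGacgccggaaat

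These lie at chr3:95434389-95434418, chr4:21848033-21848062, chr4:124937033-124937062 and chr11:58867201-58867230, each on the minus strand of a gene transcribed from the plus strand and in an annotated UTR. Arnt encodes the partner of the aryl hydrocarbon receptor and of the hypoxia-inducible factors. Its peak spanned 1579 bp in WT replicate 1, 2129 bp in WT replicate 2, 1497 bp in XistΔ/Δ replicate 1 and 1989 bp in XistΔ/Δ replicate 2. The peak of 9930104L06Rik spanned 788, 1320, 501 and 1028 bp in the same libraries, so its narrowest peak was at the smallest width in the lists while still present in each of them.

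As a share, the long motif was found in 0.482% of the replicate 2-only promoter regions (95% Wilson interval 0.234 to 0.992) and in 4.96% (4.47 to 5.51) of the 6728 promoter regions with peaks in all 4 libraries, the 4-library promoter regions. The difference was -4.48 percentage points (95% Newcombe interval -5.08 to -3.77) with the same sign on 19 of 19 autosomes. These intervals cover counting error over regions only, since regions are not replicates of a condition. The 1468 promoter regions with peaks in both replicate 2 libraries and 1 replicate 1 library (3-library regions) held the motif in 0.204% (0.0695 to 0.599), and the difference from the replicate 2-only regions, 0.278 points, had an interval from -0.188 to 0.806. The 1817 promoter regions seen in a single replicate 2 library held it in 0.771% (0.460 to 1.29). Thus the share was low in each class that at least 1 library missed, and higher in the 4-library class. Among regions that overlapped a transcript start the values were 2 of 878 (0.228%) for the replicate 2-only class and 333 of 6529 (5.1%) for the 4-library class. Peak width moved with this result: of 231 4-library regions whose peaks in both replicate 2 libraries fell within the members' interquartile ranges of width, 3 held the motif (1.3%, 0.443 to 3.75), an interval that overlaps that of the replicate 2-only regions.

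Where the motif was present in 4-library regions it kept close to the start. Of 343 matches in those regions, 75.8% (71.0 to 80.0) lay within 100 bp of a start and 77.8% were on the strand of the gene, against 1 of 7 and 4 of 7 in the replicate 2-only class. The 4 printed examples are among those on the opposite strand. Over the 500 bp around the 5′-most start of all 20807 autosomal protein-coding genes the share with the motif was 2.86%. It was 7.15% at genes with a 4-library region and 0.358% at genes with no region within 3 kb. At the 862 genes whose regions included a replicate 2-only one and none with a replicate 1 peak, it was 0 of 862. A count of 3 there would be 0.348%, and the Wilson upper limit is 0.444%, so the share was not set apart from that at genes with no region.

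The short motif CCATNTT, the core that is contained in every match of the long one, did not set the classes apart in the same way. It was present in 25.8% (23.7 to 28.2) of the replicate 2-only promoter regions and 26.8% (25.7 to 27.8) of the 4-library ones, a difference of -0.910 points with an interval from -3.34 to 1.63. Its share depended on position. Among regions over a start it was 15.3% against 26.4%, a difference of -11.1 points (-13.6 to -8.36; 18 of 19 autosomes). The 1686 TSS-distal regions with peaks in the same libraries, more than 3 kb from any transcript start, held it in 44.5%. In the 500 bp around all gene starts it occurred in 23.3%.

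Motifs of other factors, searched in the same windows on both strands, placed the replicate 2-only promoter regions between the 4-library promoters and the distal regions. Motifs common at CpG-rich promoters were less frequent than in the 4-library regions. GGGGCGGG, bound by SP and KLF factors, occurred in 20.8% (18.8 to 23.0) against 34.8%, a difference of -14.0 points (-16.3 to -11.5; 19 of 19 autosomes). CCGGAAGT, bound by ETS factors, occurred in 4.96% against 9.72%, and GCGCATGCG, bound by NRF1, in 1.79% against 3.40%. Among regions over a start these differences were smaller. SP and KLF had 29.5% against 35.4% (-5.91 points, -9.06 to -2.61), and ETS had 7.29% against 9.89%. NRF1 had 2.51% against 3.46%, with an interval of the difference from -1.92 to 0.370 points. Motifs of blood transcription factors were more frequent than in the 4-library regions, but near their shares in promoter regions seen in a single replicate 2 library.

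TGTGGTT, bound by RUNX factors, occurred in 11.4% (9.90 to 13.2) against 4.83%, a difference of 6.61 points (4.98 to 8.42; 19 of 19 autosomes). GAGGAAGT, bound by PU.1, occurred in 10.8% against 3.8% (difference 6.95 points, 5.38 to 8.70), and AGATAAG, bound by GATA factors, in 5.79% against 2.07% (difference 3.72 points, 2.57 to 5.08). The distal regions with the same library pattern were at 18.7% for RUNX, 16.8% for PU.1 and 6.05% for GATA. The TATA box motif, TATAAA, was in 13.5% of the replicate 2-only promoter regions, 6.96% of the 4-library regions and 25.1% of the distal regions. The other motifs differed less from the 4-library regions: GCCAAT (NFY) at 17% against 18% with an interval of the difference from -3.03 to 1.25 points, TGACGTCA (CREB and ATF) at 1.52% against 2.62%, and AGGGGGC (part of the CTCF motif) at 15.6% against 20.2%. CCGGAAGT and GAGGAAGT share 6 letters but cannot match the same bases. At all gene starts the shares were 26.1% for SP and KLF, 5.98% for ETS, 2.52% for NRF1, 2.73% for CREB and ATF, 20.9% for NFY, 16.9% for CTCF, 7.45% for RUNX, 3.89% for GATA, 4.37% for PU.1 and 16.4% for the TATA box. Starts of the 862 genes with a replicate 2-only region and no replicate 1 peak had RUNX in 6.26% (4.83 to 8.08). There GATA was in 3.25% (2.26 to 4.65) and PU.1 in 6.26% (4.83 to 8.08). Base composition and distance from a start moved with these shares, and their part in them was not tested.

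**Figure D1:**
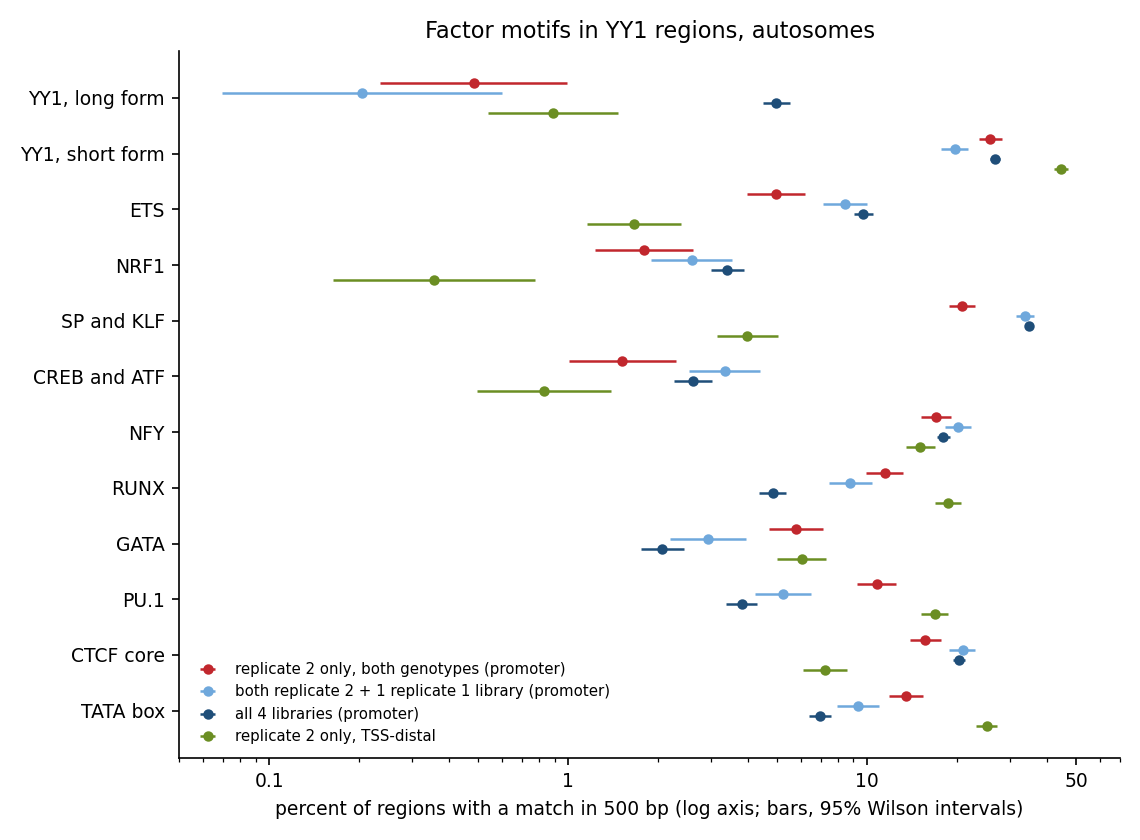
Share of regions with at least 1 match of each factor's motif in the 500 bp around the region middle, on a logarithmic axis in percent. Points are shares and bars are 95% Wilson intervals over regions. The long YY1 motif stands at 0.482% in the replicate 2-only promoter regions against 4.96% in the 4-library ones, while RUNX, GATA and PU.1 motifs run the other way.

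The replicate 2-only promoter regions were poorer in G and C than the 4-library promoters and richer than the distal regions. The median G+C of the 500 bp window was 54.8% (95% order-statistic interval 54.2 to 55.4), against 64.8% in the 4-library, 61.3% in the 3-library, 50.6% in the 1-library and 47.4% in the distal class. The ratio of observed to expected CpG had a median of 0.469, against 0.829 in 4-library and 0.250 in distal regions. Windows with at least 55% G+C and a CpG ratio of at least 0.65, as in a CpG island, made up 29.8% (27.5 to 32.2) of the replicate 2-only regions and 74.3% of the 4-library regions, a difference of -44.6 points (-47.1 to -41.9; 19 of 19 autosomes). Both values stayed apart from the members' at matched width: the 231 4-library regions with peaks as wide as the members' had a median G+C of 63.6% (62.4 to 65.2), and 68.8% of them were CpG-rich. They were not matched for position, as 83.1% of them overlapped a start against 60.5% of the replicate 2-only regions. Regions of which at least 50% was soft-masked repeat were 2.41% of the class and 0.624% of the 4-library class.

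**Figure D2:**
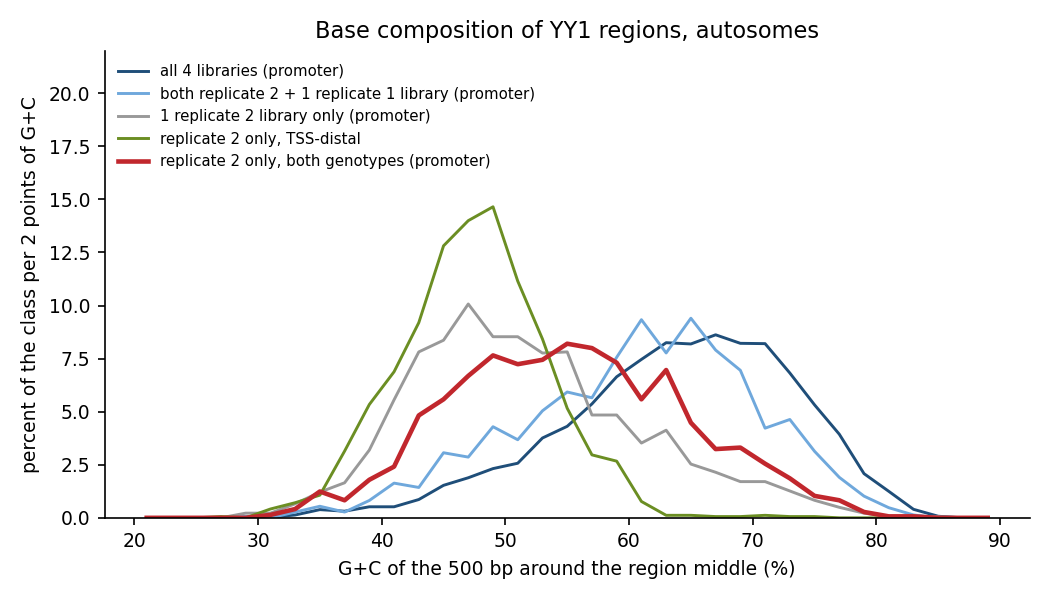
Distribution of G+C in the 500 bp around the region middle, in percent of each class per 2 points of G+C. The replicate 2-only promoter regions, with a median of 54.8%, are spread between the distal regions (47.4%) and the 4-library promoters (64.8%).

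Most of the regions lay on a transcript start, yet fewer than in the 4-library class. A start of a protein-coding gene fell inside 60.5% (58.0 to 63.0) of the replicate 2-only promoter regions, 97.0% of the 4-library, 84.7% of the 3-library and 34.8% of the 1-library regions. The differences were -36.5 points (-39.1 to -34.0), -24.2 points (-27.3 to -21.1) and 25.7 points (22.3 to 29.0), each with the same sign on 19 of 19 autosomes. A narrower region has less chance of covering a start. Measured from the middle, which does not depend on width in that way, 52.4% were within 250 bp of the nearest start against 73.1% of the 4-library regions, and 27% were more than 1000 and up to 3000 bp away against 2.75%. Middles were upstream of the start in 47.4% against 37.7%, a difference of 9.69 points (6.88 to 12.5; 18 of 19 autosomes). This was not particular to the class. The share was 47.3% in the 1-library regions (interval of the difference -3.36 to 3.53 points). In the 3-library regions it was 45.4% (-1.57 to 5.66 points). The middle fell in an intron in 38.2% of the regions, in a UTR in 23.7%, in a coding exon in 7.24%, in another exon in 6.69% and outside protein-coding genes in 24.1%.

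**Figure D3:**
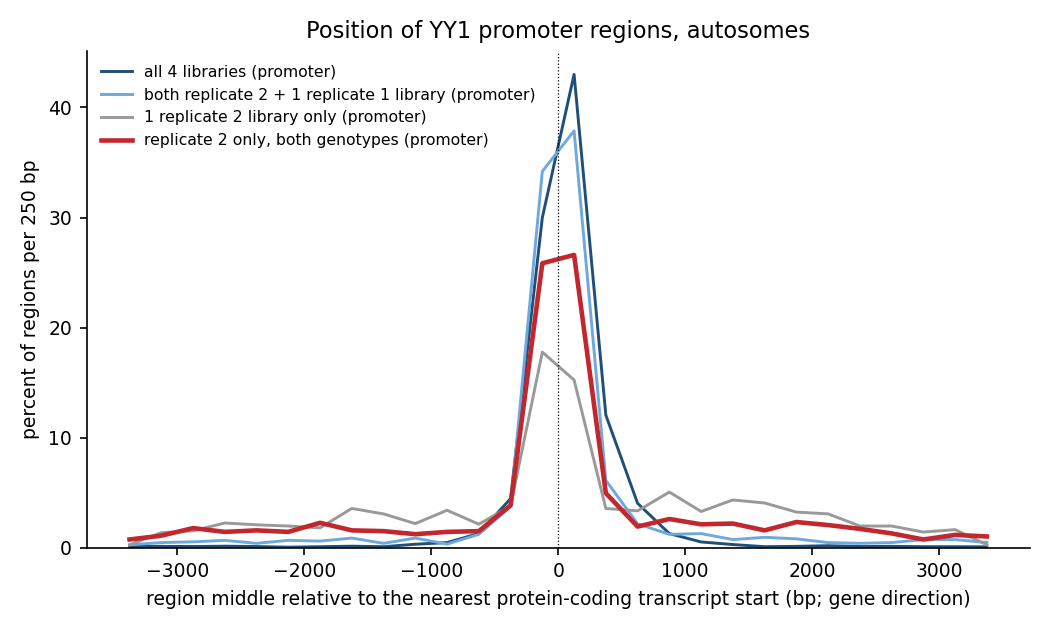
Position of the region middle relative to the nearest protein-coding transcript start, in the direction of the gene, as the percent of each class per 250 bp and up to 3500 bp on either side. The replicate 2-only promoter regions peak at the start, with 52.4% of middles within 250 bp, and carry a longer shoulder out to 3000 bp than the 4-library regions.

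The 3 kb limit cut through a continuous run of distances. The last regions inside it were 2982 bp from a start of Kdm7a, a histone demethylase gene, and 2991 bp from one of Notch1, the receptor that directs T-cell fate. The first outside were 3024 bp from Cd9, a tetraspanin gene, and 3062 bp from Ndc1, a nuclear pore gene. Of 3457 autosomal regions with the same library pattern, 1451 met the limit, 320 were near a start of a noncoding gene alone, and 1686 were distal. The reverse pattern, a peak in both replicate 1 libraries and neither replicate 2 library, was found at 6 promoter regions. By chromosome the replicate 2-only class made up between 9.30% (chromosome 12) and 15.2% (chromosome 7) of promoter regions.

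Some genes of the class also had a 4-library region, and others had no replicate 1 peak at all. Within 3 kb of a start of 1503 genes, 7.22% of the 20807 autosomal protein-coding genes, there was a replicate 2-only region. At 862 of these genes, 4.14% of all and 57.4% of the 1503, no region had a peak in a replicate 1 library. At 500 others (33.3%) there was also a 4-library region, against 37.1% of all autosomal protein-coding genes. At 141 there was a region with some replicate 1 peak but none in all 4 libraries. Regions near several genes count for each: 159 of the 1451 (11%) were near at least 2 genes, against 20.5% of the 4-library regions, and 108 genes had at least 2 replicate 2-only regions.

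The sites of these genes differed. In 818 regions, no gene within 3 kb had a replicate 1 peak. Of these, 80.7% (77.8 to 83.2) covered a start, the middle was a median of 107 bp from it, the median G+C was 58.2%, 44.0% were CpG-rich, and 2.32% had a 4-library region within 5 kb. In 491 regions, a gene within 3 kb had a 4-library region as well. Here 32.2% (28.2 to 36.4) covered a start, the middle was a median of 1223 bp away, the median G+C was 49.6%, 9.98% were CpG-rich, and 65.2% had a 4-library region within 5 kb. The short YY1 motif was in 18.7% (16.2 to 21.5) of the former and 37.3% (33.1 to 41.6) of the latter. Median widths were alike in WT replicate 2, at 654.5 and 650 bp. In XistΔ/Δ replicate 2 the former were wider, with medians of 758 and 664 bp. The split follows from which neighbours were present, so distance from a start and from a 4-library region are partly set by it.

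For the class as a whole, 23.6% (21.5 to 25.9) lay within 5 kb of another region that was in all 4 libraries, against 8.64% of the 4-library regions themselves, 12.9% of the 3-library, 32.7% of the 1-library and 11.9% of the distal regions. The difference from the distal regions was 11.7 points (9.04 to 14.4; 19 of 19 autosomes). At 2 kb the shares were 17.9% for the replicate 2-only promoter regions, 3.33% for 4-library and 2.85% for distal regions. Of the 7589 autosomal regions with peaks in all 4 libraries, 6728 were promoter regions. Distal regions were by definition more than 3 kb from any transcript start. The contrasts with them at 5 kb and 2 kb are therefore partly set by how the classes were defined. When peaks closer than 500 bp were merged, 1295 regions met the rule, of which 1210 had the same coordinates as before, and 17.4% of the 1295 lay within 5 kb of a 4-library region.

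The peaks were narrow in both genotypes. The lists hold no tag counts per peak, so width is the only size they give, and 501 bp is its smallest and most frequent value. In WT replicate 2 the lowest, median and highest widths were 501, 651 and 2604 bp, and in XistΔ/Δ replicate 2 they were 501, 753 and 3090 bp. The 4-library promoter regions had medians of 1471 and 1450.5 bp in the same libraries, and the 3-library ones 878.5 and 894 bp. At 30.9% and 23.7% of the replicate 2-only regions the peak had the smallest width, and at 12.4% and 13.7% it was over 1000 bp. Ranked among all peaks of its library, the median member stood at the 27.2 percentile of width in WT and the 34.5 percentile in XistΔ/Δ, so not all were among the narrowest. One peak per library made up 1418 of the regions (97.7%), and in 179 regions both peaks shared under 50% of the region's length.

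**Figure D4:**
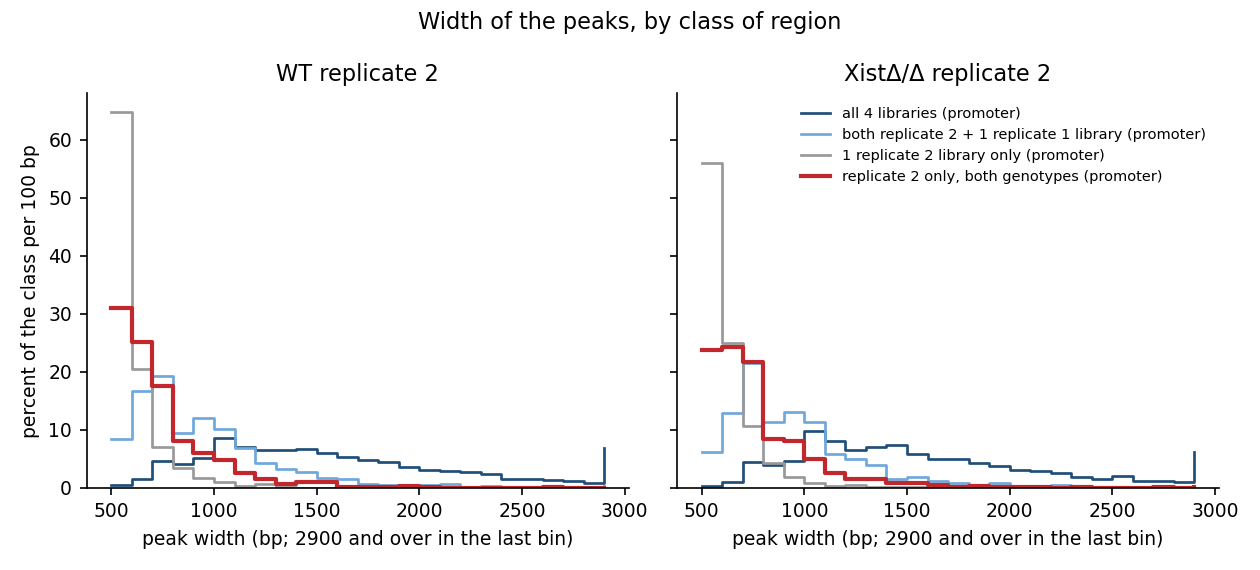
Widths of the peaks in the WT (left) and XistΔ/Δ (right) replicate 2 libraries, in percent of each class per 100 bp, with widths of 2900 bp and over in the last bin. The replicate 2-only promoter regions have medians of 651 and 753 bp, between those of regions seen in 1 library (501 bp in both) and the 3-library regions (878.5 and 894 bp).

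Between genotypes the comparison rests on 1 library each, with no replicate check, because the class has no peak in replicate 1. Within a region the XistΔ/Δ peak was wider at 727 regions (50.1%), the WT peak at 551 (38.0%), and widths were equal at 173 (11.9%). The median ratio of XistΔ/Δ to WT width was 1.00 (order-statistic interval 1.00 to 1.01), and it was 0.996 in 4-library and 1.00 in distal regions. A ratio of at least 2 was found at 29 regions and of at most 0.5 at 22. Ranked by width within its own library, the region stood higher in XistΔ/Δ at 979 of 1451 regions, but so it did at 4273 of 6728 4-library and 1179 of 1686 distal regions. The ranks are not on the same scale: a 501 bp peak stood at the 9.25 percentile in WT and the 9.82 percentile in XistΔ/Δ. Regions with 501 bp in both libraries therefore counted as higher in XistΔ/Δ. The XistΔ/Δ library was also the deeper one.

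The 10 regions that ranked widest in both libraries lay at genes of several kinds. The highest rank was at Bbc3, which encodes the p53-induced killer protein PUMA. The region chr7:16312314-16314425 covered a start of this gene, with its middle in an intron. Its peaks spanned 2011 bp in WT and 1872 bp in XistΔ/Δ. Bbc3 had 3 regions, and a replicate 1 peak was present among them. Mlkl, the executioner of necroptosis, had 1917 and 1972 bp over its start (chr8:111337035-111339126). Both are cell death genes, and both were chosen by width alone. Tifa, an adaptor of NF-kB signalling, had 1817 and 1893 bp (chr3:127789636-127792926).

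Snrpa, which encodes a protein of the U1 particle of the spliceosome, had 1651 and 1483 bp centred 45 bp upstream of its start. Hist1h4k, a histone H4 gene in the large histone cluster, had 1843 and 1688 bp and a 4-library region 1904 bp away. At Rabgap1l, a Rab GTPase-activating protein gene, the peaks spanned 1566 bp in WT and 3090 bp in XistΔ/Δ over a window of 32.6% G+C. The remaining ones were Gpr108 (1880 and 1825 bp), the metalloprotease gene Adamts6 (2604 and 1717 bp), Zfp608 (1917 and 1837 bp, in coding sequence) and Rnf43, whose product removes Wnt receptors (1563 and 1571 bp). None of the 10 held the long or the short YY1 motif in its window.

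Across 27 gene lists, the share of genes with a replicate 2-only region ranged around the background of 7.22%. Genes of the machinery that YY1 is known for were mostly in the 4-library class. Of 79 cytosolic ribosomal protein genes 75 had a 4-library region, and 8 had a replicate 2-only one. At Rps24, a small-subunit gene with a 4-library region as well, it covered a start with 769 bp in WT and 926 bp in XistΔ/Δ. At Rplp2 and Rpl3l it lay 2909 and 2962 bp from a start. The region near Rpl3l was also near Rps2, and it is the same one that covered a start of Ndufb10. Counted once per region, the cytosolic ribosomal list had 7 of 78. Mitochondrial ribosomal protein genes had 2 of 78, Mrpl14 over its start and Mrpl22 at 2797 bp. Respiratory chain and ATP synthase genes had 4 of 83, among them Cox6b1 (793 and 627 bp) and Ndufb10 (628 and 640 bp). Proteasome genes had 2 of 44, at Psmd9 (627 and 632 bp) and Psmb8, the immunoproteasome subunit, with 501 bp in both. Splicing factors had 2 of 47, Snrpa and Snrpb2 (787 and 1024 bp), and neither gene had a replicate 1 region.

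Counted gene by gene, the intervals of 3 lists lay above the background and that of 1 list below it. No list was adjusted for the number looked at, and the lists were drawn up with earlier results of these data known. Cell cycle genes had 6 of 34 (17.6%, Wilson interval 8.35 to 33.5). Only 2 of the 34 (5.88%, 1.63 to 19.1) had a member and no replicate 1 region, an interval that includes the 4.14% of all genes. Among the 6 were Cdc25b, the phosphatase that activates cyclin-dependent kinases (922 and 899 bp over its start), Rbl1, a retinoblastoma relative (1316 and 1116 bp in an intron), and Ccnd3, which encodes cyclin D3 (832 and 799 bp, 2570 bp from a start). Rbl1 and Ccnd3 also had 4-library regions. Aminoacyl-tRNA synthetase genes had 6 of 37 (16.2%, 7.65 to 31.1). Hars and Hars2, the cytosolic and mitochondrial histidine enzymes, shared a single region of 781 bp in WT and 770 bp in XistΔ/Δ, and Iars had 650 and 762 bp over its start. With genes that share a region counted once, the list had 5 of 36 (13.9%, 6.08 to 28.7), and its interval then included the background.

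Zfp zinc finger genes had 36 of 358 (10.1%, 7.35 to 13.6), and at 31 of these (8.66%, 6.17 to 12, against 4.14% of all genes) no region had a replicate 1 peak. Zfp13 (1727 and 1325 bp) and Zfp775 (1164 and 1061 bp) were centred 228 and 26 bp downstream of their starts. Olfactory receptor genes, which are known for their use in the nose, had 2 of 1128 (0.177%, 0.0486 to 0.644), Olfr56 over its start and 119 bp from a 4-library region, and Olfr6 with 501 bp in both libraries, 2433 bp away. The low share was not particular to the class: 1126 of the 1128 (99.8%) had no YY1 region of any class within 3 kb, against 48.3% of all genes.

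**Figure D5:**
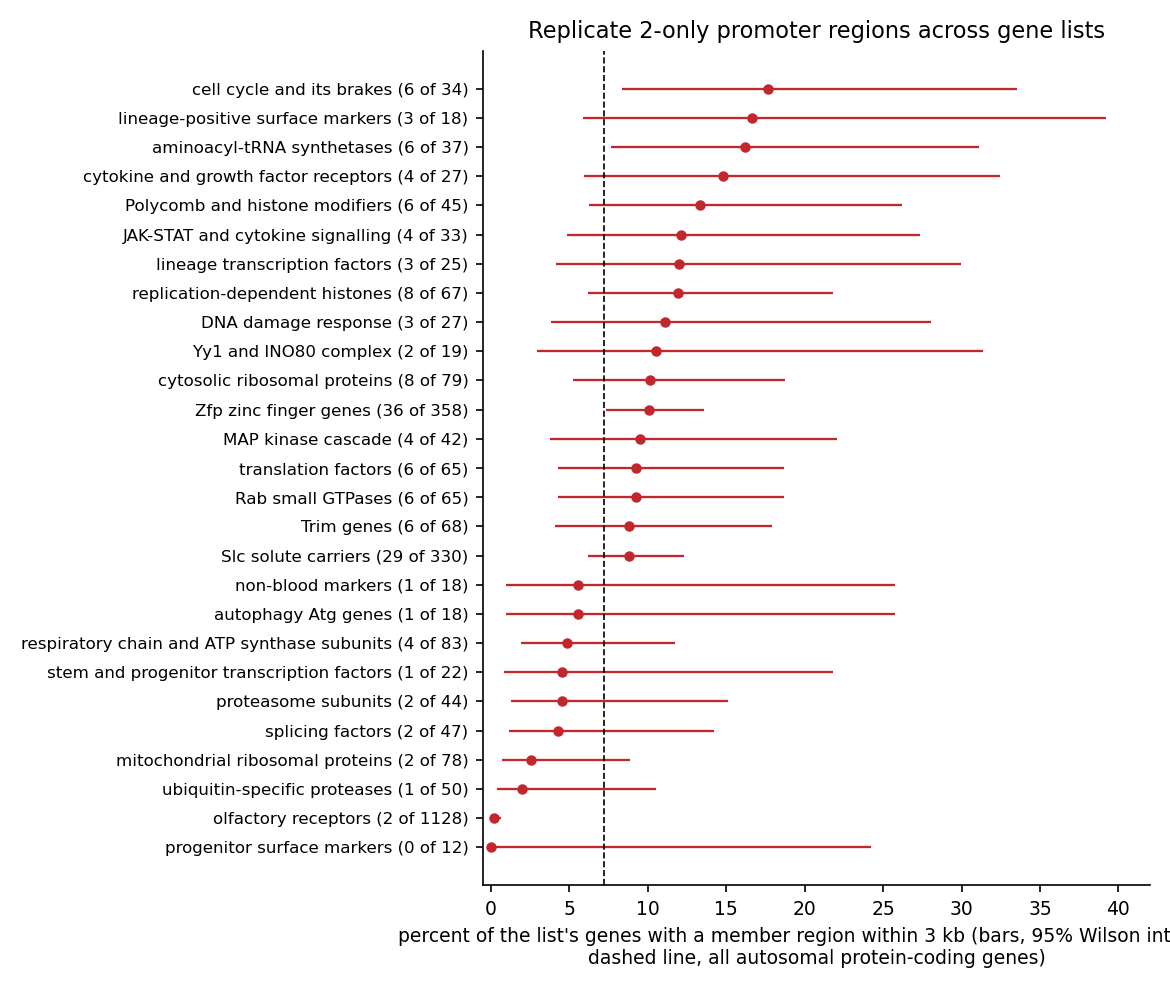
Percent of the genes of each list with a replicate 2-only promoter region within 3 kb of a start. Points are shares, bars are 95% Wilson intervals over genes, and the dashed line is the share among all autosomal protein-coding genes, 7.22%. Cell cycle and Zfp genes have intervals above the line and olfactory receptors below it. Of the olfactory receptor genes, 99.8% had no YY1 region of any class. The aminoacyl-tRNA synthetase interval clears the line only while Hars and Hars2, which share a region, count as 2 genes.

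Genes of blood identity had shares whose intervals included the background of 7.22%. Of 25 lineage transcription factor genes 3 were members (Wilson interval 4.17% to 29.96%), each with a 4-library region as well. At Spi1, which encodes PU.1, the region was in an intron 1884 bp from a start, with 914 bp in WT and 962 bp in XistΔ/Δ. At Bcl11a, the repressor of fetal globin, it covered a start with 719 and 759 bp, and at Nfe2, a factor of the erythroid and megakaryocyte lineages, it had 634 and 626 bp in an intron. Of 22 stem and progenitor factor genes Hoxb4 alone was a member (0.807% to 21.8%), with 1039 and 829 bp at 2798 bp from a start. Of the progenitor surface marker genes 0 of 12 were, with a Wilson interval up to 24.2%.

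Of 18 surface markers of mature lineages 3 were members (16.7%, 5.84 to 39.2). Among them, Cd5, a T-cell gene, had 629 and 784 bp over its start and no replicate 1 region. Itgam, which encodes CD11b, a protein used for the depletion, had 636 and 787 bp in an intron 415 bp from a start. Whether cells of mature lineages were left in the libraries was not tested. Of 18 genes listed as markers of non-blood tissue Pecam1 was a member, with 501 bp in both and a 4-library region elsewhere near its starts. It is an endothelial gene that blood cells also express.

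Lists of signalling genes had shares whose intervals included the background of 7.22%. Of cytokine and growth factor receptor, JAK-STAT and MAP kinase genes, 3.70%, 3.03% and 2.38% had a member and no replicate 1 region, against 4.14% of all genes. Among 27 cytokine and growth factor receptor genes there were 4: Tnfrsf1a, a TNF receptor gene, had 1190 and 905 bp over its start and no replicate 1 region, Ptger4, a prostaglandin receptor gene, had 1417 and 855 bp, and Ifngr2, an interferon receptor gene, had 627 and 501 bp in an intron. Of 33 JAK-STAT genes 4 were members: Stat4 had 904 and 778 bp over its start with no replicate 1 region, whereas Jak2 (763 and 755 bp) and Ptpn6 (626 and 988 bp) also had 4-library regions. MAP kinase genes had 4 of 42, with Map3k13 at 1589 and 1151 bp over its start, Mapk14 at 776 and 633 bp over a start and Map4k4 at 664 and 501 bp in an intron.

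Genes of DNA repair and chromatin also had shares with intervals that included the background, and some of their members had no replicate 1 region. Of DNA damage response, Polycomb and histone modifier, and Yy1 and INO80 genes, 7.41%, 4.44% and 5.26% had a member and no replicate 1 region. The value for all genes, 4.14%, lay within each interval. Of 27 DNA damage response genes 3 were members. Bbc3 had another region with a replicate 1 peak. Chek1, the checkpoint kinase, had 636 bp in WT and 1031 bp in XistΔ/Δ over its start. Fanca, of the Fanconi anaemia core complex, had 1443 and 1418 bp in an intron. Neither Chek1 nor Fanca had a replicate 1 region. Of 45 Polycomb and histone modifier genes 6 were members. Dnmt3b, a DNA methyltransferase gene kept in that list, had 925 and 1116 bp over its start and no replicate 1 region, while Kmt2d (695 and 501 bp) and Kdm5b (632 and 773 bp) also had 4-library regions. In the Yy1 and INO80 list of 19 genes Nfrkb, an INO80 subunit, had 1060 and 955 bp over its start without a replicate 1 region, and Stag1, of cohesin, had 645 and 653 bp in an intron.

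The remaining lists stood near the background or held few genes. Translation factor genes had 6 of 65, with Eif3m (1143 and 1199 bp) and Eif2b2 (822 and 1353 bp) over their starts and no replicate 1 region, and Eif4a1 (637 and 761 bp) beside a 4-library region. Solute carrier genes had 29 of 330, with Slc39a8, a zinc and manganese importer (1478 and 805 bp), Slc15a3, a peptide and histidine carrier (885 and 1695 bp), and Slc41a2 (979 and 950 bp) the highest ranked. Rab genes had 6 of 65 (Rab38 with 967 and 806 bp, Rab26 with 632 and 501 bp, Rab44 with 630 and 627 bp). Trim genes also had 6, of 68 (Trim7 with 1484 and 1663 bp, Trim34a with 791 and 676 bp, Trim46 with 640 and 632 bp). Histone genes had 8 of 67, and Hist1h4k, Hist1h2ak and Hist1h2bn, which ranked highest, shared 1 region. Counted once per region the list had 4 of 63. Autophagy genes had 1 of 18 (Atg12, 936 and 501 bp), and ubiquitin-specific protease genes 1 of 50 (Usp2, 501 and 632 bp).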

How the data were processed

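Per the file headers and the study's methods, the authors aligned reads with Bowtie2 2.3.5.1 to mm10, removed duplicates and alignments with a mapping quality under 30, and ran HOMER 4.9.1 findPeaks separately on each library in region mode, with a peak size and minimum distance of 500 bp, an FDR of 0.001 and 4-fold enrichment over the local region. No input library is named. The deposited lists hold positions and a score that is 1 for every peak, so the score ranks nothing. Positions, widths and list order were read with Python 3.11 code. Genes and starts came from GENCODE M21, sequence from GRCm38.

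Shares were compared with 95% Wilson and Newcombe intervals and medians with order-statistic intervals. No p-value was computed. Merging, motif search and intervals were tested on simulated data. Named genes were the 10 members with the highest value of the lower width percentile of both replicate 2 libraries, up to 3 genes per list by the same value, motif regions nearest to a start outside chromosome 18, and the regions next to the 3 kb limit. Members, lists and tests were chosen with earlier results of these data known. Tag directory paths at the top of each file carry other replicate numbers than the labels, written as 2 and 4 for WT replicates 1 and 2 and as 1 and 3 for XistΔ/Δ. The labels were followed, and a further number in those paths, shared between genotypes, groups the libraries as the labels do. The comparisons with 3-library regions, with 4-library regions of the members' width and among regions over a start were added after seeing the data. Some genes that the naming rule selects are not reported here.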

Additional observations from a re-analysis of the deposited data

How the results depend on the processing

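The long YY1 motif share stayed within its interval under every other setting tried (0.345% to 0.672%), and was 0.228% over starts only (added after seeing the data). The share covering a start was 80.8% with a 1 kb limit, 66.5% with peaks closer than 500 bp merged and 93.2% with the first 50% of every list, and ranged from 47.1% to 69.0% when 1 library was left out. Median G+C was 57.2% with 1 kb, 62.4% with the shortened lists, and 55.7% and 52.8% in windows of 300 and 1000 bp (52.6% to 57.6% with 1 library left out). The share within 5 kb of a 4-library region was 15.6% with 1 kb, 17.4% with merging and 5.17% with the shortened lists. At 2 kb and 10 kb it was 17.9% and 30.8%, and it ranged from 22.7% to 30.9% with 1 library left out. The width ratio was 0.991 with the shortened lists, and 1.00 to 1.01 without either replicate 1 library. It has no value without a replicate 2 library. With percentiles of place in the list used instead of widths, the median ratio of XistΔ/Δ to WT was 1.18, which is not a ratio of widths. Leaving out a library admits more regions, 2181 to 2775. The shortened lists gave 1567 regions, of which 85 were among the 1451, since a shorter list makes other regions fall short in replicate 1. No paired analysis was possible because the class has a peak in 1 library per genotype. The replicate 1 libraries were shallower, and a missing peak there does not show that a site was unbound. Why these peaks were missing was not tested.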

Other observations

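The same library pattern was looked for on the X chromosome, which the class leaves out. There 59 of 288 promoter regions (20.5%, Wilson interval 16.2 to 25.5) had a peak in both replicate 2 libraries and neither replicate 1 library, against 12.3% (11.7 to 12.9) of the 11770 autosomal promoter regions. The difference was 8.16 percentage points (Newcombe interval 3.86 to 13.2). It covers counting error over regions only, and both genotypes enter it.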
